A study of Homo sapiens with 9 samples.

Results

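The genes described here are 9 histone genes: H3-3A and H3-3B, which both encode histone H3.3, H2AZ1 and H2AZ2, which encode the H2A.Z pair, MACROH2A1 and MACROH2A2, H2AX, H2AJ, and the linker histone gene H1-10. They were taken by name, as the replication-independent replacement variants plus H2AX, and matched by Ensembl identifier. They make up 9 of the 60609 gene identifiers in the count tables. RNA was sequenced after ribosomal RNA removal from U2-OS, an established human osteosarcoma cell line, although the labels also carry the term polyA RNA. Clone A1 and clone A4 overexpress NCBP2, which binds the cap of nuclear RNAs as the smaller partner of NCBP1, and gave 3 libraries each, named replicates A, B and C. The controls were 3 separate clones obtained with an empty vector, with 1 library per clone: vector replicate A is vector clone 2, replicate B is clone 3 and replicate C is clone 1. The promoter of the NCBP2 construct was not given in the sources used here. Nothing in the labels says whether the 3 libraries of an NCBP2 clone came from separate cultures, so p-values measure the spread between these libraries, which may be technical, and each NCBP2 clone is 1 clone.

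Most histones are made from intronless genes during S phase, and their mRNAs end in a stem-loop in place of a poly(A) tail. Replacement variants are made throughout the cell cycle, mostly from polyadenylated mRNAs, and are placed in chromatin independently of DNA replication by dedicated chaperones. H3.3 marks active genes and also enters telomeric and silent chromatin, H2A.Z flanks promoters, macroH2A carries a large additional domain and is common in silent chromatin, and H2AX is phosphorylated around DNA breaks.

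The H3.3 and H2A.Z pairs are shown first because their counts were compared within libraries, which requires that reads of the paralogs can be told apart. The first 90 coding bases of each gene are given 5′ to 3′ from GENCODE transcripts on GRCh38, with capitals where the base differs from the paralog at the same position.
H3-3A: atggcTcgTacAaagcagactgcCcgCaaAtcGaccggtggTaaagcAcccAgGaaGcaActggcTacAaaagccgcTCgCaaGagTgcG
H3-3B: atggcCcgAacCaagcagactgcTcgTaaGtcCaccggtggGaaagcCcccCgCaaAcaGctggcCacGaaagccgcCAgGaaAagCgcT
H2AZ1: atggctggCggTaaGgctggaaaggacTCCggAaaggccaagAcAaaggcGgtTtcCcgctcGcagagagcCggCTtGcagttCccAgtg
H2AZ2: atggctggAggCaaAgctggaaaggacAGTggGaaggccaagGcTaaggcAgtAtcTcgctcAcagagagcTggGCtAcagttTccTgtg
Over the whole coding sequence of 408 bases, H3-3A and H3-3B were identical at 320 bases (78.4%), and all 136 codons encoded the same residue although 57 codons were spelled alike. H2AZ1 and H2AZ2 were identical at 309 of 384 bases (80.5%), and 125 of 128 codons encoded the same residue. The longest stretch shared at the same positions was 14 bases for the H3.3 pair and 23 bases for the H2A.Z pair.

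H3-3A has another partner, which shares its whole coding sequence. The processed pseudogene H3P6 (chr2:174719908-174720318, plus strand, GRCh38) is a retrocopy whose 411 annotated bases were identical, at all 411 positions, to the coding sequence and stop codon of H3-3A. Its identity with H3-3B was 78.6%. The deposited counts leave out reads with several alignments, which were 6.80% to 16.3% of all reads, and reads that lie wholly within this stretch match both loci. How alignment divided them was not tested, so the level of H3-3A is uncertain. H3P6 held 2143 to 4846 counts per library, against 2049 to 4855 for H3-3A. H3P6 was singled out after its counts were seen. The 54 listed retrocopies of the H3.3 and H2A.Z genes held 34729 counts in all, of which 33702 were those of H3P6, and 20 of them had at least 1 count. The retrocopies of the H2A.Z genes named H2AZP held 41 counts in all, against 238547 for H2AZ1 and H2AZ2 together.

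**Figure D1:**
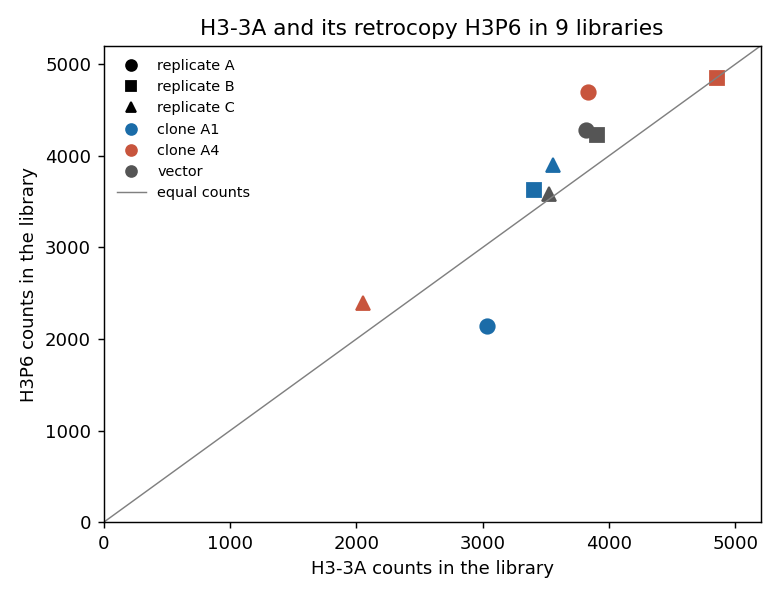
Counts of the retrocopy H3P6 (vertical axis) against counts of H3-3A (horizontal axis) in each of the 9 libraries, with symbols for the replicate letter and colors for the group. The grey line marks equal counts: clone A1 replicate A, with 2143 against 3038, lies furthest below it, and clone A4 replicate C, with 2392 against 2049, is the lowest library for H3-3A.

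Libraries held 80341579 to 111784333 reads and 29234022 to 50554080 counts in genes. Values are given in CPM, the customary unit for the counts of a gene relative to the gene counts of its library. Library sizes were taken over the genes kept for testing and scaled by TMM. NCBP2 itself was counted at 299, 348 and 305 CPM in clone A1 replicates A, B and C, at 796, 1035 and 456 CPM for clone A4, and at 98.4, 90.6 and 98.3 CPM with the empty vector. All 6 NCBP2 libraries lay above all 3 vector libraries. The mesenchymal markers VIM, COL1A1, RUNX2 and SPARC were counted at 182 to 2250 CPM, CD3E and TERT had 0 counts in all 9 libraries, PECAM1 had at most 5 counts, CDH5 at most 54 and PTPRC at most 57, and of the epithelial markers EPCAM reached 5.58 CPM, CDH1 3.63 CPM and KRT18 101 CPM. Clone A1 replicate A and clone A4 replicate C stood apart from the other libraries of their groups in GC content. Over 2029 tested protein-coding genes, histones left out, whose transcripts are at least 60% GC, the median deviation of log2 CPM from the gene's mean was -0.95 in clone A1 replicate A and 0.84 in clone A4 replicate C, while the other 4 NCBP2 libraries lay between -0.12 and 0.17. Among vector libraries it was -0.06, 0.53 and -0.27 in replicates A, B and C.

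No member passed the test in any comparison. With edgeR's quasi-likelihood test and a Benjamini-Hochberg adjusted p under 0.05 over 21682 genes, 0 of 9 members were called in the NCBP2 arm (both NCBP2 clones together) against vector, where 0.0184% of all genes were called. The count was likewise 0 of 9 in clone A1 against vector (0.0646% of all genes), in clone A4 against vector (0.115%) and in clone A4 against clone A1 (0.161%). NCBP2 itself was not called in the NCBP2 arm, at a log2 fold change of 2.495 (SE 0.407, adjusted p = 0.123 by edgeR). Its adjusted edgeR p was 0.0327 in clone A1, 0.000417 in clone A4 and 0.0764 between the clones. Thus the lack of a call in the NCBP2 arm does not show that a gene was unchanged. DESeq2 and limma's voom with quality weights also called 0 members in each of the 4 comparisons. At an unadjusted edgeR p under 0.05, 1 member, MACROH2A2, was found in each of the 3 comparisons with vector, and 0 in clone A4 against clone A1. The shares of all genes under that bound were 5.71%, 7.51%, 5.25% and 6.63% in the same order of comparisons. The median log2 fold change of the 9 members was 0.01 in the NCBP2 arm, 0.07 in clone A1, -0.13 in clone A4 and -0.16 between the clones, beside medians over all genes of 0.02, -0.02, 0.03 and 0.04. The comparisons with vector share the same 3 vector libraries.

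**Figure D2:**
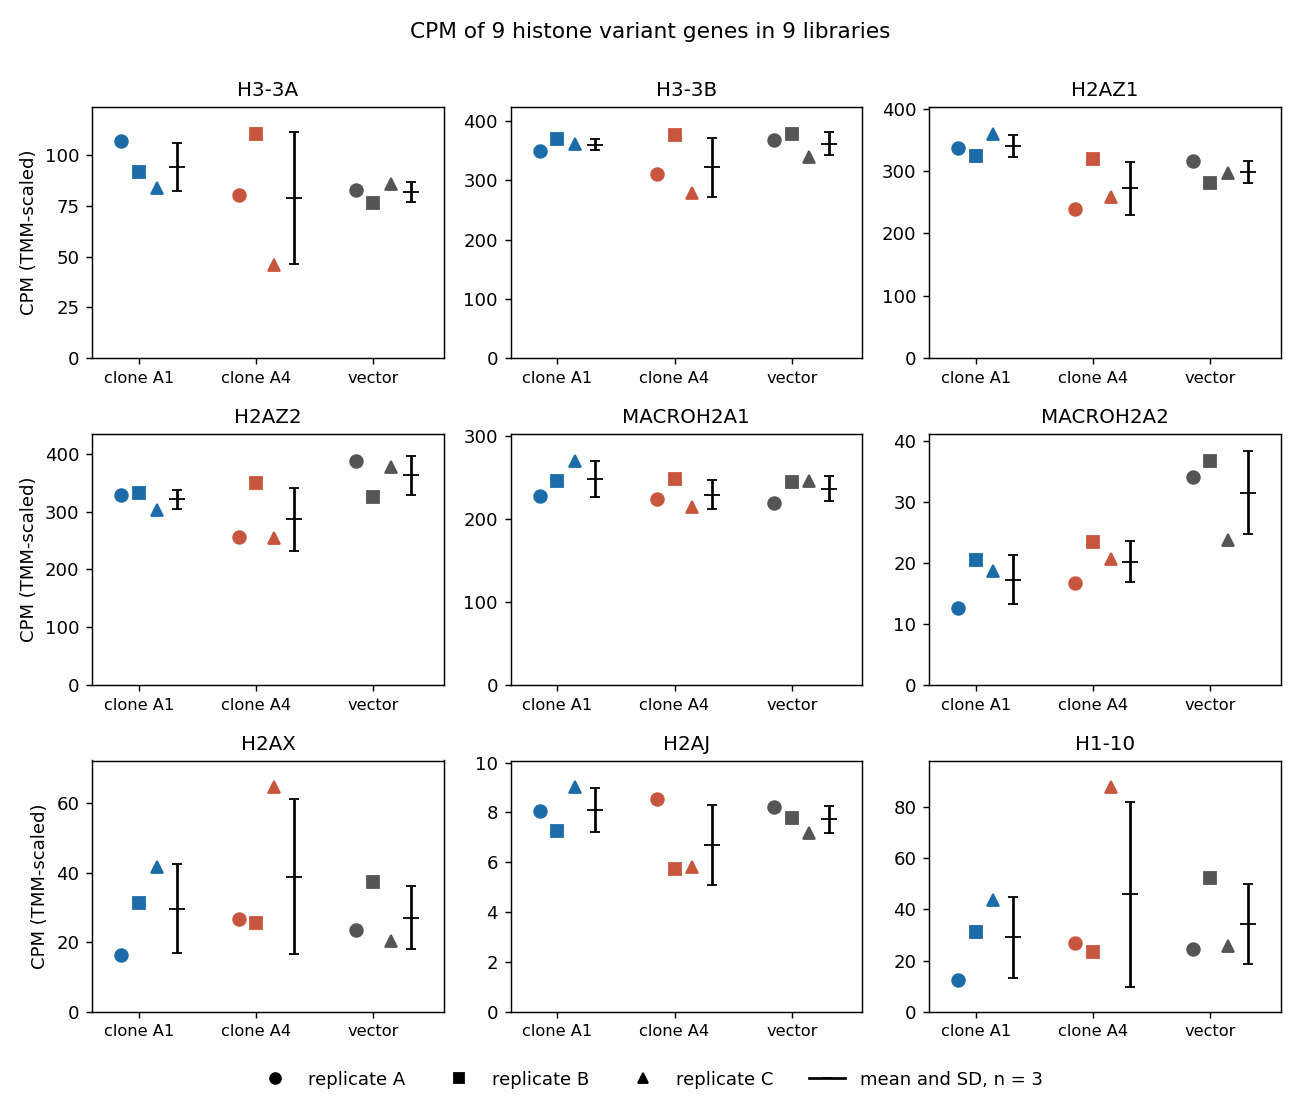
CPM (vertical axis, from 0) of each of the 9 genes in the 3 libraries of clone A1, clone A4 and vector, with 1 symbol per library and the mean with SD (n = 3) beside each group. MACROH2A2 is the gene whose 6 NCBP2 libraries, at 12.7 to 23.4 CPM, all lie below the 3 vector libraries, at 23.8 to 36.7 CPM, and H1-10 has the widest spread, from 12.3 to 87.6 CPM.

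Of the H3.3 genes, H3-3B had more counts than H3-3A in every library, and neither gene was called. H3-3B (chr17:75776434-75785893, minus strand, 4 exons in its canonical transcript) was counted at 350, 369 and 361 CPM in clone A1 replicates A, B and C, at 311, 376 and 279 CPM for clone A4, and at 368, 378 and 340 CPM with the empty vector. The groups overlapped, with clone A4 replicate C the lowest library. H3-3A (chr1:226061851-226072019, plus strand, 4 exons) was counted at 107, 91.6 and 83.6 CPM in clone A1, at 80.4, 110 and 45.9 CPM for clone A4, and at 82.7, 76.3 and 86.0 CPM with the empty vector. Clone A4 held both the highest and the lowest of the 9 libraries for H3-3A, and the vector libraries lay within that range. The log2 fold change in the NCBP2 arm was 0.08 (SE 0.23) for H3-3A and -0.09 (SE 0.13) for H3-3B, with an adjusted edgeR p of 0.999 for both. In clone A4 against vector H3-3A was at -0.05 (SE 0.26), and at 0.21 without clone A4 replicate C. In bulk RNA, less RNA per cell and fewer cells of a kind cannot be told apart.

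The H3-3A counts were 0.305, 0.248 and 0.232 times those of H3-3B in clone A1 replicates A, B and C. The ratio was 0.259, 0.294 and 0.165 in clone A4, and 0.225, 0.202 and 0.253 in vector. Groups overlapped, and clone A4 replicate C was the lowest library. The mean log2 ratio was -2.03 ± 0.32 (SD, n = 6) over the NCBP2 libraries and -2.15 ± 0.16 (SD, n = 3) in vector, a difference of 0.12 (two-sided exact permutation test, p = 0.571). With the counts of H3P6 added to H3-3A, a setting chosen after seeing the data, the difference was 0.10 (exact permutation p = 0.583). H3-3A and H3P6 together made 182, 189 and 175 CPM in clone A1, 179, 221 and 99.4 CPM for clone A4, and 175, 159 and 174 CPM with the empty vector. Clone A4 replicate C was again the lowest library by that sum. H3P6 itself differed by a log2 fold change of 0.005 (SE 0.20) in the NCBP2 arm (adjusted p = 0.999 by edgeR).

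The genes listed as H3.3 chaperones, not all of which serve H3.3 alone, gave no call. Of 7 genes (HIRA, UBN1, UBN2 and CABIN1 of the HIRA complex, ASF1A, and ATRX with DAXX), 7 were tested and 0 passed the adjusted edgeR threshold in any of the 4 comparisons. At an unadjusted p under 0.05, 1 was lower in the NCBP2 arm, UBN2, at 82.2 ± 8.11 CPM (SD, n = 6), where vector had 110 ± 34.6 CPM (SD, n = 3). The libraries of the groups overlapped, and 5.71% of all genes had an unadjusted p under 0.05 in that comparison. The list's median log2 fold change in the NCBP2 arm was 0.01, beside 0.02 over all genes. CABIN1, the other gene named by the rule for lists without a call, stood at 84.1 ± 24.3 CPM in clone A4 and 60.9 ± 19.0 CPM in clone A1 (SD, n = 3), with an adjusted edgeR p of 0.800.

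The proportions within the H2A.Z pair separated the NCBP2 libraries from vector but did not pass the adjusted threshold, and neither gene was called. H2AZ1 (chr4:99948086-99950355, minus strand, 5 exons) was counted at 338, 324 and 359 CPM in clone A1 replicates A, B and C, at 239, 319 and 258 CPM for clone A4, and at 316, 281 and 297 CPM with the empty vector. For H2AZ1 all 3 libraries of clone A1 lay above vector, a separation found for 14.2% of all genes in either direction, and all 3 of clone A4 lay below clone A1, as 13.6% of all genes did in either direction. H2AZ2 (chr7:44826791-44848087, minus strand, 5 exons) was counted at 329, 333 and 303 CPM in clone A1, at 256, 350 and 254 CPM for clone A4, and at 388, 325 and 377 CPM with the empty vector. Its groups overlapped: vector replicate B lay below clone A1 replicates A and B and clone A4 replicate B. The log2 fold change of H2AZ1 was 0.19 (SE 0.15) in clone A1 and -0.13 (SE 0.15) in clone A4, and that of H2AZ2 -0.18 (SE 0.16) and -0.34 (SE 0.16). The lowest of these 4 adjusted edgeR p-values was 0.814, that of H2AZ1 in clone A1. Between the clones, H2AZ1 was at -0.32 (SE 0.15, adjusted p = 0.756 by edgeR).

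Within each library, H2AZ1 had 1.03, 0.975 and 1.19 times the counts of H2AZ2 in clone A1 replicates A, B and C. The ratio was 0.935, 0.911 and 1.02 in clone A4, and 0.814, 0.865 and 0.789 in vector. All 6 NCBP2 libraries lay above all 3 vector libraries. The mean log2 ratio was 0.007 ± 0.13 (SD, n = 6) over the NCBP2 libraries and -0.28 ± 0.07 (SD, n = 3) in vector, a difference of 0.29 or 1.22-fold. The two-sided exact permutation p was 0.0119, the smallest that 6 libraries against 3 can give, and 0.0714 after Benjamini-Hochberg adjustment over the 12 ratio tests, which does not pass 0.05. The difference was 0.37 in clone A1 and 0.21 in clone A4, each with an exact permutation p of 0.1, the smallest that 3 libraries against 3 allow. Clone A4 and clone A1 overlapped, with a difference of -0.15 (exact permutation p = 0.2). With counts summed per clone the difference was 0.29, but 2 clones against 3 give an exact permutation p no lower than 0.1, the value found, and without vector replicate C it was 0.26 (exact permutation p = 0.0714).

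**Figure D3:**
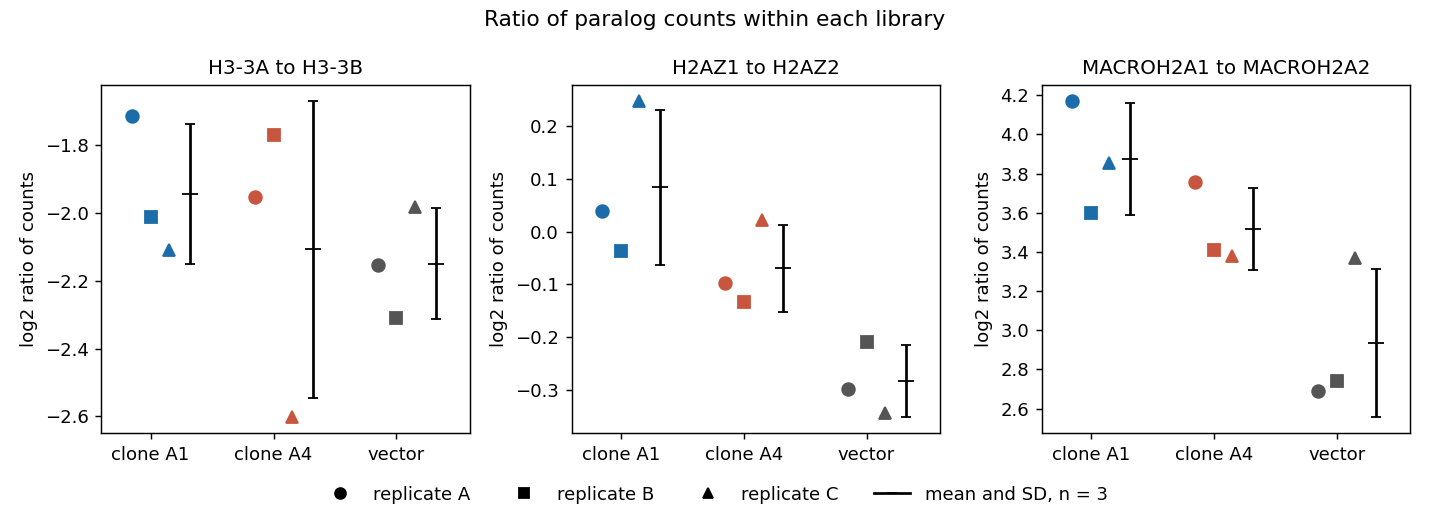
Log2 ratio of the counts of each paralog pair (vertical axis, ranges differ between panels) in the 3 libraries of clone A1, clone A4 and vector, with the mean and SD (n = 3) beside each group. For H2AZ1 to H2AZ2 and for MACROH2A1 to MACROH2A2 all 6 NCBP2 libraries lie above the 3 vector libraries, by a mean of 0.29 and 0.76, and for H3-3A to H3-3B the groups overlap.

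The machinery that places and removes H2A.Z was followed in 20 genes of the SRCAP, p400-TIP60 and INO80 complexes with the H2A.Z chaperone ANP32E, all of which were tested. Of these, 0 passed the adjusted edgeR threshold in any of the 4 comparisons. At an unadjusted p under 0.05, 1 was higher in the NCBP2 arm, 1 was higher in clone A1, 0 differed in clone A4, and 2 were lower in clone A4 when set against clone A1. Over all genes, 5.71%, 7.51%, 5.25% and 6.63% were under that bound in these comparisons. EPC2, a subunit of the p400-TIP60 complex, was at 105 ± 20.5 CPM in clone A1 against 74.1 ± 11.8 CPM in vector (SD, n = 3 each), without overlap (adjusted p = 0.526 by edgeR). INO80, the motor of its remodelling complex, was at 49.4 ± 4.03 CPM in clone A4 against 64.6 ± 9.20 CPM in clone A1, also without overlap (adjusted p = 0.703 by edgeR). Of all genes, 14.2% did not overlap between clone A1 and vector, and 13.6% between the clones. EPC2 and INO80 were named for the smallest unadjusted p of the list. The list's median log2 fold change was 0.03 in the NCBP2 arm, 0.09 in clone A1, -0.04 in clone A4 and -0.09 between the clones.

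MACROH2A2 had the lowest edgeR p among the members in each of the 3 comparisons with vector, and it was not called. The gene (chr10:70052544-70112282, plus strand, 9 exons) was counted at 12.7, 20.4 and 18.7 CPM in clone A1 replicates A, B and C, at 16.6, 23.4 and 20.6 CPM for clone A4, and at 34.0, 36.7 and 23.8 CPM with the empty vector. All 6 NCBP2 libraries lay below all 3 vector libraries, although clone A4 replicate B and vector replicate C were separated by less than 1 CPM. MACROH2A2 was the 1 member whose libraries did not overlap between the NCBP2 arm and vector, where 3.74% of all genes did not overlap. Its log2 fold change was -0.75 (SE 0.21) in the NCBP2 arm, with an edgeR p of 0.00341 and an adjusted p of 0.501. It was -0.87 (SE 0.25) in clone A1 and -0.64 (SE 0.25) in clone A4, with adjusted edgeR p-values of 0.332 and 0.768. Between the clones it was 0.23 (SE 0.25). Over the 18 other settings tried for the NCBP2 arm the value stayed between -0.93 and -0.63, and the adjusted p between 0.0601, with a correction for GC content chosen after seeing the data, and 1.

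MACROH2A1 (chr5:135334381-135399914, minus strand, 9 exons), the more abundant gene of the pair, was the steadiest member. It was counted at 228, 247 and 271 CPM in clone A1 replicates A, B and C, at 225, 249 and 215 CPM for clone A4, and at 220, 245 and 246 CPM with the empty vector. Its highest library was 1.26 times its lowest, and 1.07% of 13983 tested protein-coding genes had a smaller range of log2 CPM over the 9 libraries. The log2 fold change in the NCBP2 arm was 0.01 (SE 0.12), which flips in sign without the filter on low counts (-0.004), without clone A1 replicate C (-0.03) and without vector replicate A (-0.05).

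The MACROH2A1 counts were 18.0, 12.1 and 14.5 times those of MACROH2A2 in clone A1 replicates A, B and C. The ratio was 13.5, 10.6 and 10.4 in clone A4, and 6.46, 6.68 and 10.3 in vector. All 6 NCBP2 libraries lay above all 3 vector libraries, with clone A4 replicate C and vector replicate C nearly level. The mean log2 ratio was 3.70 ± 0.30 (SD, n = 6) against 2.93 ± 0.38 (SD, n = 3), a difference of 0.76 or 1.70-fold. The two-sided exact permutation p was 0.0119, the smallest possible, and 0.0714 adjusted over the 12 ratio tests. With counts summed per clone the difference was 0.74, with an exact permutation p of 0.2. In the NCBP2 arm the log2 fold change was -0.75 for MACROH2A2 and 0.01 for MACROH2A1. This ratio therefore rests on the same MACROH2A2 counts and is not a separate result. MACROH2A2 overlaps AIFM2 on the opposite strand over 14060 bases, and 2.24% to 9.55% of its counts on both strands together lay on the opposite strand, so the strand of the reads bears on its level; without regard to strand the difference was 0.73.

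H2AX and H1-10 had the widest ranges over the libraries among the members, and neither was called. H2AX (chr11:119093874-119095465, minus strand, 1 exon) was counted at 16.2, 31.2 and 41.6 CPM in clone A1 replicates A, B and C, at 26.6, 25.5 and 64.5 CPM for clone A4, and at 23.4, 37.4 and 20.3 CPM with the empty vector. H1-10 (chr3:129314771-129316286, minus strand, 1 exon), a linker histone that binds DNA between nucleosomes, was counted at 12.3, 31.1 and 43.8 CPM in clone A1, at 26.8, 23.5 and 87.6 CPM for clone A4, and at 24.5, 52.4 and 25.8 CPM with the empty vector. For both genes clone A1 replicate A was the lowest of the 9 libraries and clone A4 replicate C the highest, and the groups overlapped. The highest library was 3.98 times the lowest for H2AX and 7.13 times for H1-10. The log2 fold change in the NCBP2 arm was 0.34 (SE 0.36) for H2AX and 0.13 (SE 0.47) for H1-10, both with an adjusted edgeR p of 0.999. In clone A4 against vector they were 0.52 (SE 0.41) and 0.42 (SE 0.53), and without clone A4 replicate C these became -0.07 and -0.47.

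The transcripts of both genes are rich in G and C, with 66.8% GC in the canonical transcript of H2AX and 68.6% in that of H1-10. H2AJ is at 63.1%, and the other 6 members lie between 42.8% and 52.9%. A smooth curve of each library's log2 CPM deviations on GC content, fitted over all tested genes, stood at -1.19 in clone A1 replicate A and 1.23 in clone A4 replicate C at the GC content of H1-10, where H1-10 itself deviated from its mean by -1.36 and 1.48. In vector replicate B the curve stood at 0.64 and H1-10 at 0.73. With the curve taken out, the range of log2 CPM over the 9 libraries went from 2.83 to 0.52 for H1-10 and from 1.99 to 0.54 for H2AX. H2AJ went the other way, from 0.65 to 2.24. Its GC content is that of a canonical transcript of 620 bases, while its longest transcript has 3107 bases. Whether that GC content describes the H2AJ RNA counted here was not tested. With this GC correction in the edgeR fit, a setting chosen after seeing the data, the NCBP2 arm against vector gave 0.004 (SE 0.15) for H1-10 and 0.31 (SE 0.13) for H2AX, with adjusted p-values of 0.999 and 0.466. Clone A4 against clone A1 turned in sign for both, from 0.66 to -0.07 for H1-10 and from 0.39 to -0.24 for H2AX.

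**Figure D4:**
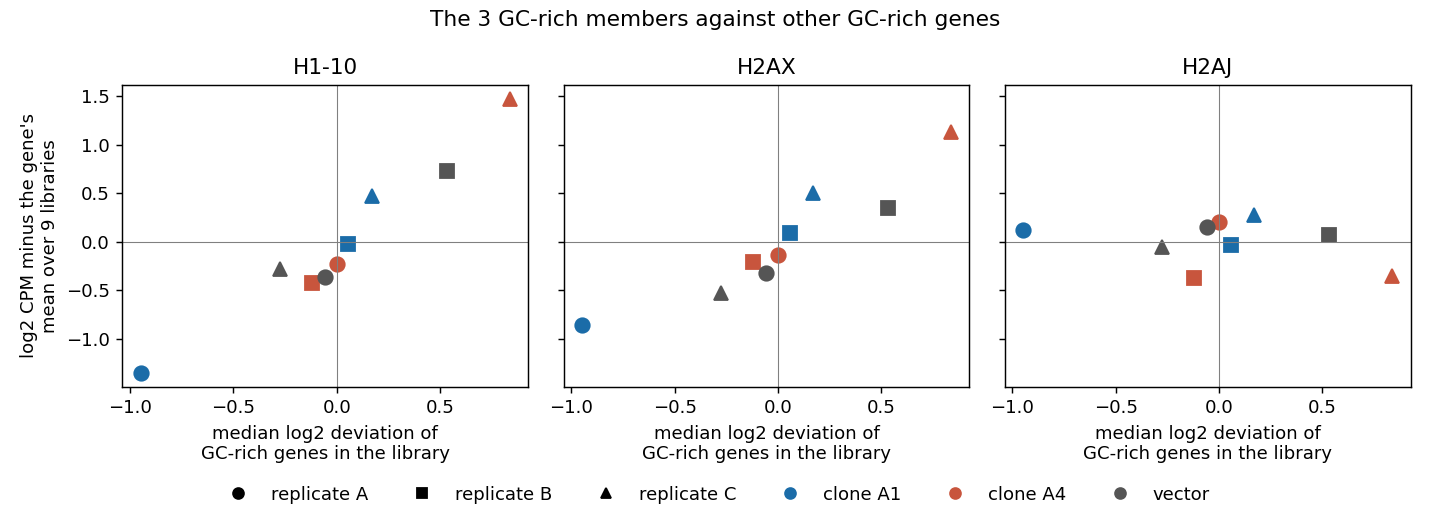
For H1-10, H2AX and H2AJ, the log2 CPM of each library minus the gene's mean over 9 libraries (vertical axis) against the median log2 deviation, in the same library, of the 2029 other genes with at least 60% GC (horizontal axis). H1-10 and H2AX are lowest in clone A1 replicate A, at -0.95 on the horizontal axis, and highest in clone A4 replicate C, at 0.84, whereas H2AJ stays between -0.37 and 0.28.

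H2AX is known for an mRNA that can end like those of replication-dependent histones. The sequence that follows is shown for that end: 28 bases of its GENCODE transcript on GRCh38, from base 43 to base 70 after the stop codon, with a match to the histone stem-loop in capitals.
H2AX: ccacaaaGGCCCTTTTAAGGGCCaccac
The motif searched was GGCNCTTTNNAGNGCC, where N is any base, on the sense strand of annotated transcripts. It was found in 1 of the 9 members, in 65 of 69 replication-dependent histone genes (94.2%) and in 76 of 20046 protein-coding genes (0.379%). The mRNA of H2AX is known in both a stem-loop form and a polyadenylated form, which these counts do not separate. A match describes the letters only.

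The damage-signalling partners of H2AX, 12 genes that include the kinases ATM, ATR and PRKDC and the reader MDC1, were all tested. By edgeR 0 passed the adjusted threshold in any comparison, and 0 had an unadjusted p under 0.05. Their median log2 fold change was 0.09 in the NCBP2 arm, beside 0.02 over all genes, and -0.12 between clone A4 and clone A1. BAZ1B, which encodes a tyrosine kinase for H2AX, was at 272 ± 27.3 CPM over the NCBP2 libraries (SD, n = 6) and 240 ± 28.6 CPM in vector (SD, n = 3), and MRE11, a nuclease at breaks, at 72.7 ± 17.3 and 67.6 ± 23.7 CPM.

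H2AJ (chr12:14774405-14778002, plus strand, 1 exon), a mammalian H2A variant that accumulates in senescent cells, was the least counted member, at 229 to 408 counts per library. It was at 8.06, 7.26 and 9.01 CPM in clone A1 replicates A, B and C, at 8.56, 5.73 and 5.80 CPM for clone A4, and at 8.23, 7.77 and 7.17 CPM with the empty vector. The groups overlapped, and clone A4 replicates B and C were the lowest libraries. The log2 fold change was -0.06 (SE 0.23) in the NCBP2 arm and -0.28 (SE 0.26) between clone A4 and clone A1, with adjusted edgeR p-values of 0.999 and 0.857. Other settings moved the value for the NCBP2 arm across 0, to 0.08 with the GC correction.

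**Figure D5:**
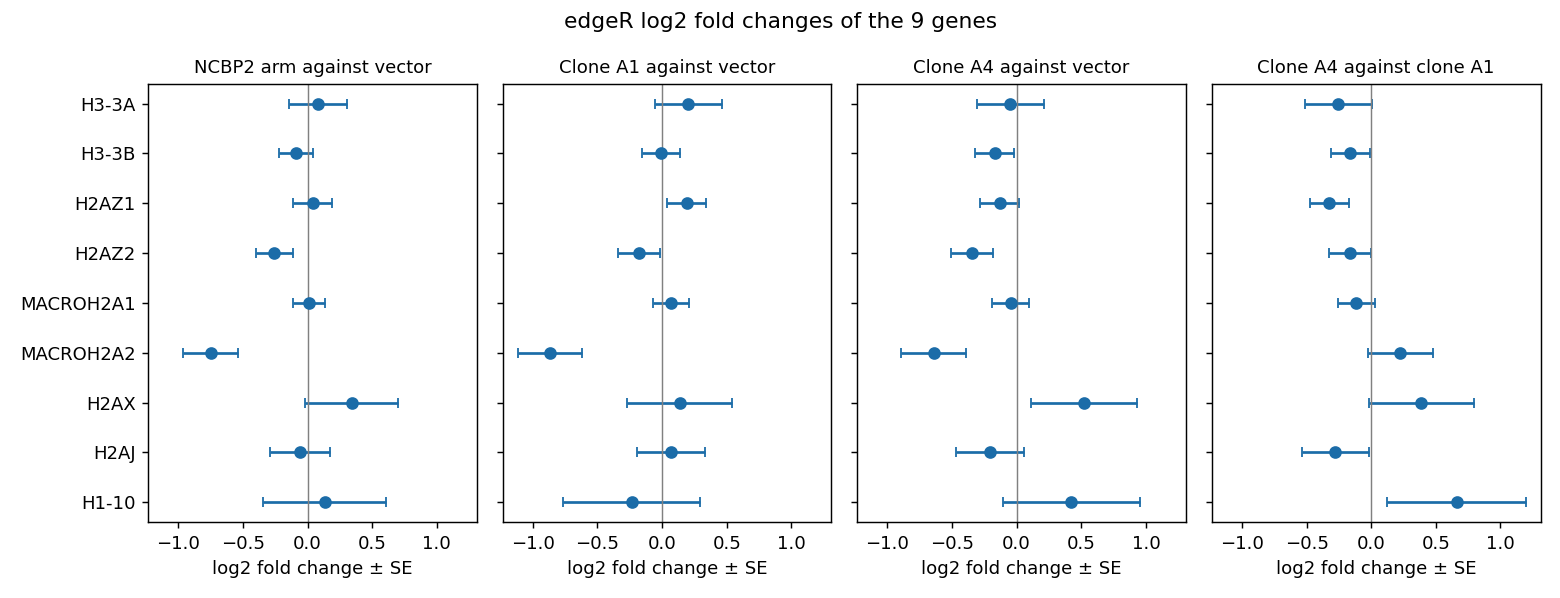
Log2 fold change (horizontal axis) with its SE from edgeR's quasi-likelihood fit for each of the 9 genes, 1 panel per comparison, with 0 marked in grey. MACROH2A2 lies at -0.75, -0.87 and -0.64 in the 3 comparisons with vector, and the longest error bars are those of H1-10.

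Counted by overlap of libraries, 2 members stood clear of vector in clone A1, H2AZ1 above it and MACROH2A2 below it, where 14.2% of all genes did not overlap. In clone A4 against vector 1 member, MACROH2A2, did not overlap, beside 12.1% of all genes. Between the clones 1 member, H2AZ1, did not overlap, beside 13.6% of all genes. The members' shares, 2 of 9 or 1 of 9, were near those backgrounds.

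Per length of gene, the order of levels was led by H2AZ1. In vector, CPM per kilobase of the union of exons was 131 ± 7.73 for H2AZ1, 59.0 ± 3.24 for H3-3B, 51.9 ± 4.82 for H2AZ2, 22.6 ± 10.4 for H1-10, 21.3 ± 1.30 for H3-3A, 17.0 ± 5.71 for H2AX, 13.9 ± 0.871 for MACROH2A1, 2.32 ± 0.159 for H2AJ and 2.10 ± 0.455 for MACROH2A2 (SD, n = 3). H2AZ1 stood apart from H3-3B in all 3 libraries, H2AZ2 from H1-10, and MACROH2A1 from H2AJ, while every other pair of neighbours in that order overlapped. With the longest transcript as length, levels were 130 ± 7.14 for H3-3B and 43.8 ± 2.66 for H3-3A, H3-3A passed H1-10, MACROH2A1 passed H2AX, and MACROH2A2, at 8.12 ± 1.76, passed H2AJ, at 2.49 ± 0.171. The level of H3-3A by either length does not include the counts of H3P6. For MACROH2A1 the union of exons spans 17013 bases and the longest transcript 10982, against 1917 in the canonical transcript. Its level per length, and so its place in the order, would be higher by the canonical length, by which the order was not computed.

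Among protein-coding genes with a mean log2 CPM of at least 1, those nearest to a member were found by the root mean square difference of log2 CPM over the 9 libraries, after centring each gene on its own mean. This was done for the 3 members with the widest range. AGRN, at 0.13, and RECQL4, at 0.13, were nearest to H1-10 among 11414 genes, whose median distance from it was 0.81. Their transcripts are 67.6% and 65.3% GC. URM1, at 0.10, and KIF18B, at 0.11, were nearest to H2AX, beside a median of 0.63, with 56.5% and 58.4% GC. PPP1R9B, at 0.13, and HLA-E, at 0.14, were nearest to MACROH2A2, beside a median of 0.52, with 63.8% and 55.1% GC. Among the members themselves H2AX and H1-10 were each other's nearest, at 0.27, but 98 of the 11414 genes were nearer to H1-10 than H2AX was, and 320 were nearer to H2AX than H1-10 was.

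Among other variant histones, 2 of 10 listed genes were counted highly enough to be tested, and by edgeR 0 passed the adjusted threshold. CENPA, the centromeric H3 variant, was at 64.8 ± 9.03 CPM over the NCBP2 libraries (SD, n = 6) and 45.8 ± 1.56 CPM in vector (SD, n = 3), without overlap. Its log2 fold change was 0.50 (SE 0.16, unadjusted p = 0.00694 by edgeR, adjusted p = 0.565). In that comparison 3.74% of all genes did not overlap. Of the general histone chaperones, 13 of 13 were tested and 0 passed the adjusted edgeR threshold, with 1, 2, 0 and 1 genes at an unadjusted p under 0.05 in the 4 comparisons. The shares of all genes under that bound were 5.71%, 7.51%, 5.25% and 6.63%. HAT1, which acetylates new histone H4, was at 93.3 ± 19.8 CPM in clone A1 against 50.4 ± 14.7 CPM in vector (adjusted p = 0.367 by edgeR). SET, a chaperone and phosphatase inhibitor, was at 1154 ± 134 CPM in clone A1 against 794 ± 85.7 CPM in clone A4 (adjusted p = 0.341 by edgeR). The chaperone list ran from -0.342 to 0.890 in clone A1 (median 0.075), with HAT1 the highest. Between the clones it ran from -0.539, that of SET, to 0.230 (median -0.111). Of 14 proliferation genes, 0 passed the adjusted threshold by edgeR in any comparison. At an unadjusted p under 0.05 there was 1 in each, beside the shares of all genes just given. MCM6, a replication helicase subunit, was at 116 ± 10.5 CPM in clone A1 against 83.9 ± 9.63 CPM in vector, and CDK1, the mitotic kinase, at 213 ± 28.3 CPM in clone A4 against 335 ± 57.3 CPM in clone A1 (SD, n = 3 each). These were the extremes of a list that ran both ways. Its log2 fold changes ran from -0.506 to 0.463 in clone A1 (median 0.032), where MCM6 was the highest. Between the clones they ran from -0.654 to 0.631 (median -0.215), where CDK1 was the lowest.

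The replication-dependent histones, 39 of 69 of which were tested, gave 2 calls in clone A1, H2BC8 and H2AC8, which encode an H2B and an H2A. H2BC8 was at 69.1 ± 14.0 CPM in clone A1 and 0.0976 ± 0.0976 CPM in vector (adjusted p = 9.41e-05 by edgeR), and H2AC8 at 25.4 ± 8.79 and 0.0911 ± 0.158 CPM (adjusted p = 0.00448 by edgeR). Both were also called lower in clone A4 against clone A1, and 0 were called in the NCBP2 arm or in clone A4 against vector. The list's median log2 fold change in the NCBP2 arm was 0.06. The 9 members summed to 1401, 1454 and 1490 CPM in clone A1 replicates A, B and C, to 1189, 1482 and 1230 CPM for clone A4, and to 1465, 1440 and 1422 CPM with the empty vector. The replication-dependent histones summed to 2462 to 4373 CPM, with clone A1 replicate A the lowest and clone A1 replicate B the highest library.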

How the data were processed

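The deposited files hold raw counts of reads per gene, 1 table per library, made by the authors with STAR 2.7.1a on GRCh38, per the submitters' processing notes. The annotation used for counting was not given in the sources used here. Of 4 columns, the stranded one with most counts was taken as the sense strand, and the opposite strand held 5.51% to 6.42%. Lines that name no gene, 44.5% to 63.6% of reads, were left out. Of 60609 identifiers, 60295 matched GENCODE 44, by identifier without version, and 2 of the 9 members had the same version, so lengths and GC content may differ from those used for counting.

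Counts were tested with edgeR 4.0.16 (R 4.3.3; filterByExpr, TMM, robust quasi-likelihood test, adjusted p under 0.05), in 1 fit of 2 groups and 1 fit of 3 groups over all 9 libraries; SE is the log2 fold change divided by the square root of F. DESeq2 1.42.0 and limma 3.58.1 were alternatives. Log2 CPM used a prior count of 2. The common biological coefficient of variation was 0.411. Ratios of counts were tested by exact permutation over libraries. The fits were also run on simulated data, whose spread between libraries was set lower than that of these data. That run does not show how many true changes would be found here. The GC curve was a lowess of span 0.3. The members and lists were chosen with earlier results of these data known. In lists, the genes named were those past the threshold or, with none, the 2 with the smallest unadjusted p over the 4 comparisons; the nearest genes were named for the 3 members with the widest range. Values of 1 listed variant histone and 1 marker gene are not reported here.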

Additional observations from a re-analysis of the deposited data

How the results depend on the processing

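No member was called in any of the 72 alternative fits (edgeR, DESeq2 and voom), and the lowest adjusted p was 0.0546, for MACROH2A2 in clone A1 with the GC correction. Of 648 member values under alternatives, 605 kept their direction. The counts over all genes were less stable. In the NCBP2 arm 4 genes were called, 1 to 8 with single libraries left out, 0 with counts summed per clone, 103 by DESeq2, 63 with the GC correction, 20 without a filter on low counts and 216 by voom. In clone A1 14 were called, 3 to 14 with single libraries left out, 274 by DESeq2, 182 with the GC correction, 312 without the filter, 7 with only the 6 libraries compared and 297 by voom. In clone A4 25 were called, 7 to 41 with single libraries left out, 185 by DESeq2, 138 with the GC correction, 163 without the filter and 233 by voom. Between the clones 35 were called, 10 to 56 with single libraries left out, 22 without both libraries that stand apart (clone A1 replicate A and clone A4 replicate C), 246 by DESeq2, 181 with the GC correction, 231 without the filter and 149 by voom. The cause was not tested.

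With the replicate letter as a replicate block, 13 genes were called in the NCBP2 arm, 38 in clone A1, 53 in clone A4 and 51 between the clones. Libraries of different groups that share a letter correlated in their deviations from -0.10 to 0.18, and those with different letters from -0.27 to 0.22. The first range lies within the second, and the letters were not taken as pairs. The exact permutation p of the ratios of H2AZ1 to H2AZ2 and of MACROH2A1 to MACROH2A2 in the NCBP2 arm was 0.037 for both when labels were permuted within letters. That is the smallest p that permutation within letters can give, and it is not adjusted.

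Values that turned in sign, none of them called, follow as log2 fold changes; the GC correction and leaving out both libraries were chosen after seeing the data. With single libraries left out, the NCBP2 arm gave -0.012 to 0.102 for H2AZ1, -0.051 to 0.042 for MACROH2A1 (-0.004 without the filter), -0.13 to 0.003 for H2AJ (0.079 with the GC correction) and -0.32 to 0.57 for H1-10 (-0.089 with the replicate block and -0.13 without both libraries). Clone A1 gave -0.067 to 0.026 for H3-3B (0.015 by voom and 0.011 without both), 0.00 to 0.13 for MACROH2A1, -0.19 to 0.45 for H2AX, -0.017 to 0.135 for H2AJ and -0.66 to 0.22 for H1-10 (0.32 by voom, 0.04 with the GC correction and 0.13 without both). Clone A4 gave -0.39 to 0.21 for H3-3A (0.22 without both), -0.073 to 0.819 for H2AX (-0.056 without both) and -0.47 to 0.86 for H1-10 (-0.029 with the GC correction and -0.45 without both). Between the clones the ranges were -0.58 to 0.004 for H3-3A (0.12 without both), -0.21 to 0.72 for H2AX (-0.074 by voom, -0.24 with the GC correction and -0.49 without both) and -0.23 to 1.08 for H1-10 (-0.066 with the GC correction and -0.58 without both), and MACROH2A2 gave -0.049 by voom.

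The difference in the log2 ratio of H3-3A to H3-3B ranged from -0.13 to 0.29 in clone A4 against vector and from -0.333 to 0.084 between the clones with single libraries left out, and was 0.20 between the clones without both. For H2AZ1 to H2AZ2 in the NCBP2 arm it ranged from 0.24 to 0.33, was 0.29 with counts summed per clone (exact permutation p = 0.1) and 0.28 without both (exact permutation p = 0.0571). For MACROH2A1 to MACROH2A2 it was 0.74 with counts summed per clone. Depth limits H2AJ most, with 229 counts in its lowest library, and the level of H3-3A is limited by the stretch it shares with H3P6.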

Other observations

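The strand of the reads mattered for some members more than for others. Counts of H1-10 made without regard to strand were 50.5% to 73.0% of the counts on its sense strand, and its gene overlaps the antisense gene H1-10-AS1 over 895 bases, which had 11 to 115 counts per library. For MACROH2A1 the share was 76.0% to 82.1%, and the gene overlaps PITX1-AS1 on the opposite strand over 23839 bases. For H2AZ1 it was 91.6% to 98.8%, and for the other 6 members 100% to 110%.

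The 323 tested protein-coding genes with a single exon, histones left out, had a median log2 deviation between -0.06 and 0.17 in the 9 libraries. For the 63 of them with at least 60% GC it was -0.76 in clone A1 replicate A, 0.66 in clone A4 replicate C and 0.52 in vector replicate B.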
